A study of Homo sapiens with 6 samples.

Results

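The study was read here for 8 genes of the cell death machinery: the TRAIL receptors TNFRSF10A, TNFRSF10B and TNFRSF10D, the receptor FAS, the caspase-8 inhibitor gene CFLAR, the initiator caspase genes CASP8 and CASP9, and APAF1, which encodes the scaffold of the apoptosome. They were chosen by gene symbol, and each matched 1 of the 58656 gene rows. All 8 passed the filter on low counts, with at least 161 counts in every library, and so were among the 16481 genes tested. The libraries came from MDA-MB-231, an established human triple-negative breast cancer line. The mitocurcumin group received 5 µM mitocurcumin, a curcumin derivative made to accumulate in mitochondria, for 9 hours, and the control group received the DMSO vehicle for 9 hours. Each group had 3 polyadenylated RNA libraries, which the labels call biological replicates without saying whether the cells were grown separately. The tests therefore weigh differences against sample-to-sample spread that may be technical.

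Apoptosis can begin at the cell surface or in mitochondria. In the extrinsic route, TRAIL or FAS ligand binds a death receptor, and the adaptor FADD then recruits caspase-8, where the FLIP protein encoded by CFLAR can take caspase-8's place in the complex. TNFRSF10A and TNFRSF10B encode the signaling TRAIL receptors DR4 and DR5, while TNFRSF10D encodes a receptor that binds TRAIL but has a truncated death domain and acts as a decoy. In the intrinsic route, cytochrome c released from mitochondria binds APAF1, which then assembles with caspase-9. Both routes converge on downstream caspases that cut many cell proteins.

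Library totals ran from 23146822 to 29104681 counts, and ribosomal RNA rows took 0.542% to 1.51% of control and 0.292% to 1.34% of mitocurcumin libraries. Of the line's markers, VIM, CD44 and AXL were abundant in every library, with at least 637 CPM (counts scaled to a common library size), while SPARC was under 1 CPM. Of 5 markers taken to be absent or low in the line, ESR1 and PGR were at 0.354 CPM or less. CDH1 was at 1.17 to 3.2 CPM. EPCAM and ERBB2 were clearly present, at 19.09 to 24.29 and 30.03 to 48.86 CPM. The summed level of 9 markers of blood, endothelium, liver, muscle and keratinocytes was 14.99 to 19.9 CPM in control and 8.79 to 10.4 CPM in mitocurcumin libraries. PECAM1 made up most of it, at 11.4 to 15.04 and 6.0 to 6.87 CPM. CD3E, CDH5 and MYH7 were each at 0 in at least 1 library and never above 0.0864 CPM. The part of these markers in the results was not tested.

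Mitocurcumin was followed by a rise of 2 of the 8 mRNAs, TNFRSF10B and CFLAR, and a fall of 3, TNFRSF10D, TNFRSF10A and APAF1. FAS, CASP8 and CASP9 did not pass the test. The changes were modest, between 0.718 and 1.498 times the control level. A gene counted as changed at a Benjamini-Hochberg adjusted p under 0.05 in edgeR's quasi-likelihood test over all 16481 genes, and 32.5% of those genes changed, 14.7% upward and 17.8% downward. The median log2 fold change was 0.01 for the 8 genes and -0.01 for all tested genes. Treated and control libraries were fully separated for the 5 genes that changed and overlapped for the other 3. Such separation was found for 44.9% of all tested genes.

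**Figure D1:**
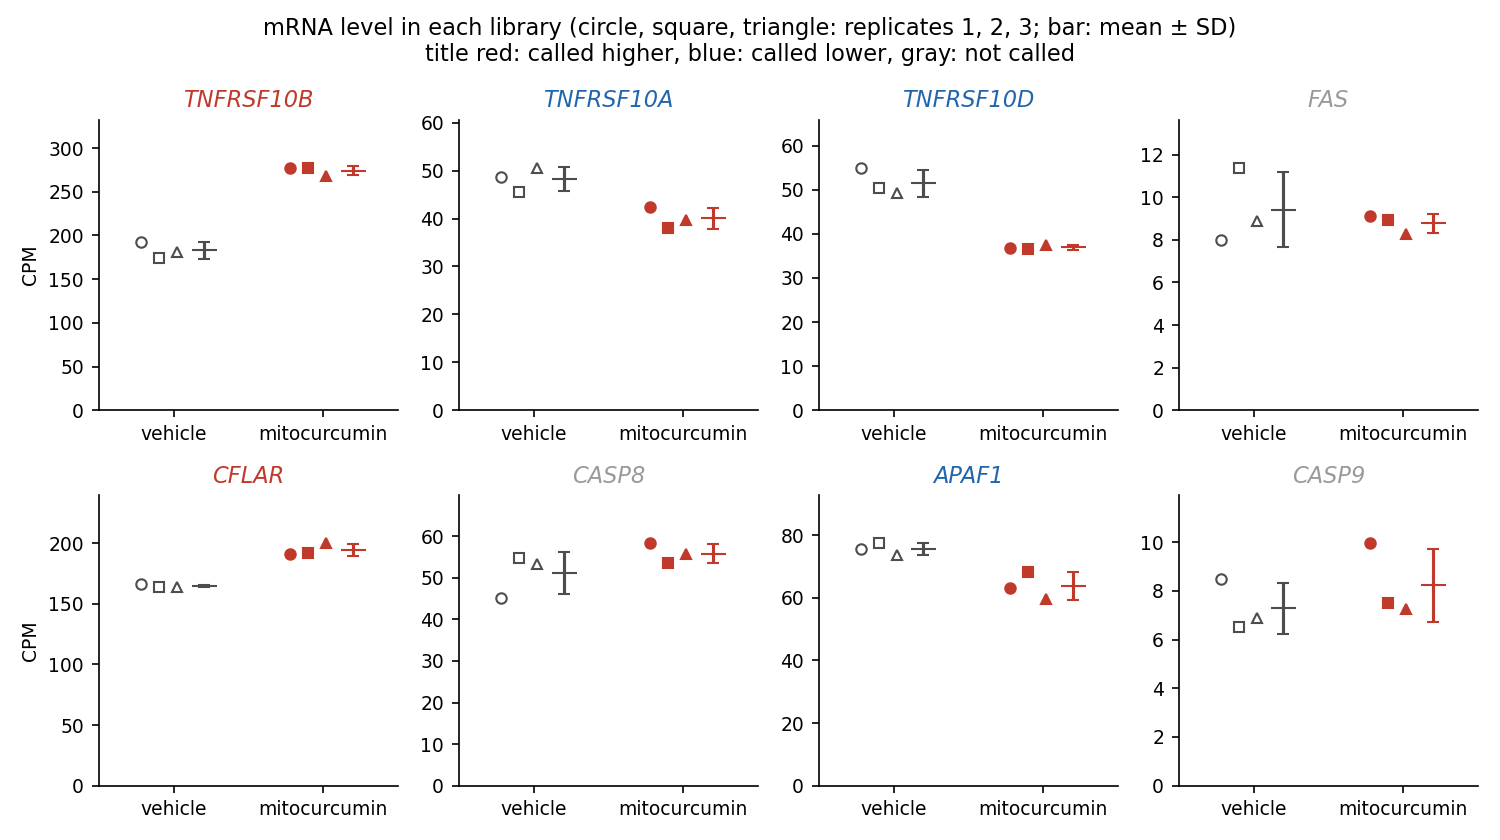
Level of each of the 8 mRNAs in CPM (vertical axes, from 0) in the 3 vehicle libraries (open symbols) and the 3 mitocurcumin libraries (filled symbols), with the mean ± SD beside them. TNFRSF10B and CFLAR lay higher in all 3 mitocurcumin libraries, TNFRSF10A, TNFRSF10D and APAF1 lay lower in all 3, and FAS, CASP8 and CASP9 overlapped.

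The receptors went in opposite directions. TNFRSF10B, the gene of DR5 (Entrez 8795, chromosome 8, 23020133 to 23069031, GRCh38), stood at 193, 175 and 181 CPM in the control libraries and at 277, 277 and 268 CPM in the mitocurcumin libraries. The lowest treated library exceeded the highest control library by a wide margin compared with the spread inside either group. From a mean of 183 ± 9.25 to 274 ± 5.16 CPM (SD, n = 3), it gained 0.58 ± 0.05 (SE) on the log2 scale (edgeR adjusted p = 3.8e-07). LOC286059, which overlaps TNFRSF10B over 803 bp on the opposite strand, reached at most 21.8 counts in any library. Among all tested genes, 14.8% changed by as much or more in either direction. TNFRSF10B was also the most abundant of the 4 receptors in both groups, in CPM and per kilobase of exon.

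TNFRSF10A, the gene of the related signaling receptor DR4 (Entrez 8797, chromosome 8, 23190452 to 23225102), stood at 48.7, 45.5 and 50.6 CPM in control and at 42.4, 38.1 and 39.7 CPM in mitocurcumin libraries. The groups did not overlap, but the gap between their nearest libraries was 45.5 against 42.4 CPM. The log2 fold change was -0.27 ± 0.08 (edgeR adjusted p = 0.0132). Leaving out control replicate 3, mitocurcumin replicate 2 or mitocurcumin replicate 3 ended this call, with edgeR adjusted p-values of 0.06855, 0.08776 and 0.05439 and log2 fold changes of -0.22, -0.22 and -0.26.

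TNFRSF10D, the gene of the decoy receptor (Entrez 8793, chromosome 8, 23135588 to 23164027), stood at 54.9, 50.4 and 49.2 CPM in control and at 36.8, 36.5 and 37.5 CPM in mitocurcumin libraries. The treated libraries lay within about a CPM of each other, well below every control library. Its log2 fold change was -0.48 ± 0.08 (edgeR adjusted p = 1.1e-04), and it stayed called without any 1 library. TNFRSF10C, the further TRAIL decoy of this family, had only 23.1 to 39.5 counts per library, and its log2 fold change of -0.23 ± 0.31 did not pass the test (edgeR adjusted p = 0.611). These receptor genes are close in sequence, and the authors' counts hold fractions, so reads may have been shared among them.

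FAS, the receptor of FAS ligand (Entrez 355, chromosome 10, 88990798 to 89017059), was scarce. It stood at 8.01, 11.4 and 8.87 CPM in control and at 9.1, 8.95 and 8.28 CPM in mitocurcumin libraries. Control replicate 2 was the highest of the 6, and the treated libraries lay between the control libraries. Its 95% interval on the log2 scale ran from -0.41 to 0.20 around -0.11 (edgeR adjusted p = 0.631), from 189 to 294 counts per library, and no difference was detectable at that depth. FAS overlaps ACTA2 over 540 bp on the opposite strand, and whether the counting used strand was not given in the sources used here. ACTA2, at 2.403 CPM in control and 1.458 CPM in mitocurcumin libraries, was much the scarcer of the pair. ACTA2 was called lower, at -0.72 ± 0.25 (edgeR adjusted p = 0.0358). The part of its reads in the FAS result was not tested.

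**Figure D2:**
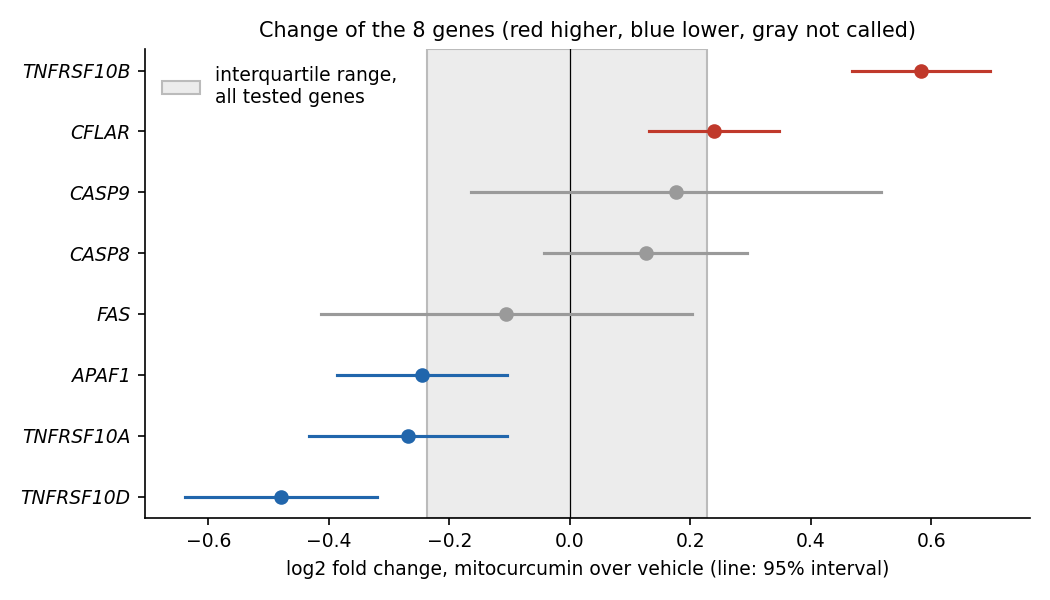
Log2 fold change of each gene, mitocurcumin over vehicle (horizontal axis), as a point with its 95% interval, beside the interquartile range of all tested genes (gray band, -0.24 to 0.23). The intervals of TNFRSF10B and TNFRSF10D lie wholly outside the band on opposite sides, and those of FAS, CASP8 and CASP9 include 0.

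Since a ratio of 2 genes within a library does not depend on how libraries are scaled, 4 such ratios of counts were compared by an exact two-sided permutation test over libraries. With 3 libraries against 3 its smallest possible p is 0.10. TNFRSF10B had 3.96, 3.84 and 3.58 counts per count of TNFRSF10A in control and 6.54, 7.27 and 6.76 in mitocurcumin libraries. The log2 ratio rose from 1.92 ± 0.07 to 2.78 ± 0.08 (SD, n = 3), a 1.81-fold shift that separated the groups completely (exact permutation p = 0.10, adjusted p over the 4 ratios = 0.20). Against the decoy TNFRSF10D, TNFRSF10B had 3.51, 3.47 and 3.69 counts per count in control and 7.53, 7.59 and 7.15 in mitocurcumin libraries. That shift was 2.09-fold, again without overlap (exact permutation p = 0.10, adjusted p = 0.20). The permutation test cannot give a p under 0.10 for either shift. Complete separation of both ratios follows from the single-gene levels, with TNFRSF10B higher and TNFRSF10A and TNFRSF10D lower in every mitocurcumin library. The 2 separations are therefore no separate evidence.

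**Figure D3:**
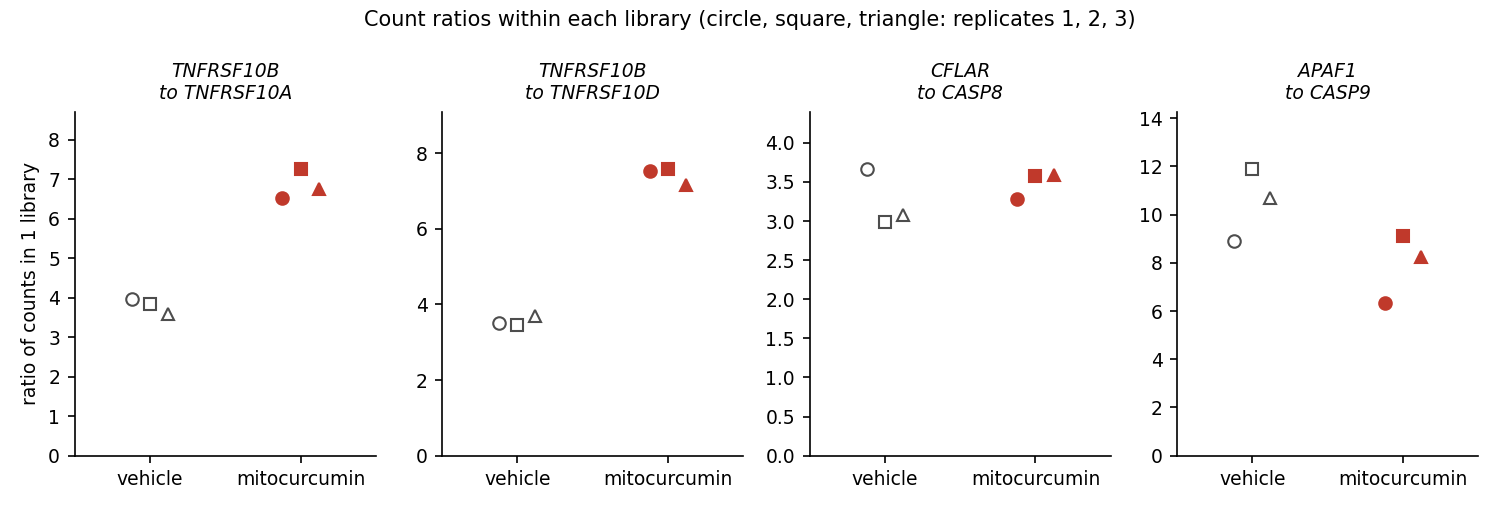
Ratio of the counts of 2 genes within each library (vertical axes, from 0) for the 3 vehicle and 3 mitocurcumin libraries. Both ratios of TNFRSF10B lie higher in every mitocurcumin library, while CFLAR to CASP8 and APAF1 to CASP9 overlap between the groups.

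CFLAR, the gene of FLIP (Entrez 8837, chromosome 2, 201116164 to 201176687), stood at 166, 164 and 164 CPM in control and at 191.5, 191.8 and 199.8 CPM in mitocurcumin libraries. The control libraries were nearly level, and all treated libraries lay above them. The mean went from 165 ± 1.14 to 194 ± 4.72 CPM (SD, n = 3), a log2 fold change of 0.24 ± 0.05 (edgeR adjusted p = 0.00159), or 18.04% more. It stayed called without any 1 library. CFLAR-AS1 overlaps CFLAR over 17504 bp on the opposite strand, at 2.13 CPM in control and 2.16 CPM in mitocurcumin libraries. The part of its reads in the CFLAR result was not tested.

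CASP8, whose product FLIP competes with (Entrez 841, chromosome 2, 201233443 to 201287711), stood at 45.3, 54.8 and 53.4 CPM in control and at 58.3, 53.5 and 55.7 CPM in mitocurcumin libraries. Control replicate 1 was the lowest of the 6, and the other libraries overlapped. The log2 fold change was 0.13, with a 95% interval from -0.04 to 0.29 (edgeR adjusted p = 0.252), and was 0.05 without control replicate 1. CFLAR had 3.67, 2.99 and 3.07 counts per count of CASP8 in control and 3.29, 3.58 and 3.59 in mitocurcumin libraries. The groups overlapped, with a 1.08-fold shift in the mean log2 ratio (exact permutation p = 0.40, adjusted p = 0.40). That shift ranged from 0.05 to 0.20 on the log2 scale when single libraries were left out, the highest without control replicate 1.

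APAF1 (Entrez 317, chromosome 12, 98645290 to 98735433) stood at 75.5, 77.3 and 73.6 CPM in control and at 63.2, 68.4 and 59.6 CPM in mitocurcumin libraries. All treated libraries lay below all control libraries. The mean went from 75.5 ± 1.87 to 63.7 ± 4.42 CPM (SD, n = 3), a log2 fold change of -0.25 ± 0.07 (edgeR adjusted p = 0.00906). Leaving out mitocurcumin replicate 1 or mitocurcumin replicate 3 ended the call, with edgeR adjusted p-values of 0.0514 and 0.06871 and log2 fold changes of -0.23 and -0.20. APAF1 overlaps ANKS1B over 648 bp on the opposite strand, at 1.71 CPM in control and 2.58 CPM in mitocurcumin libraries. That difference did not pass, at 0.61 ± 0.75 (edgeR adjusted p = 0.603). IKBIP, 502 bp from APAF1 on the opposite strand, fell by -0.18 ± 0.06 (edgeR adjusted p = 0.0244). Within 100 kb, TMPO also fell, at -0.47 ± 0.06, and SLC25A3 did not pass, at 0.05 ± 0.05. Over all tested genes 17.8% fell.

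Caspase-9, the protease that APAF1 activates, is encoded by CASP9 (Entrez 842, chromosome 1, 15491401 to 15524790), the scarcest of the 8 genes in CPM. It stood at 8.475, 6.496 and 6.869 CPM in control and at 9.945, 7.501 and 7.24 CPM in mitocurcumin libraries. Replicate 1 was the highest library of each group, and the groups overlapped. The log2 fold change was 0.18, with a 95% interval from -0.16 to 0.52 (edgeR adjusted p = 0.445), from 161 to 246 counts per library. It was 0.03 without mitocurcumin replicate 1 and 0.30 without control replicate 1. APAF1 had 8.91, 11.9 and 10.7 counts per count of CASP9 in control and 6.35, 9.11 and 8.23 in mitocurcumin libraries, a 0.748-fold shift with overlap (exact permutation p = 0.20, adjusted p = 0.267). The log2 shift of -0.42 became -0.27 without mitocurcumin replicate 1.

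Of the 5 genes that changed, APAF1 is the one for which the RefSeq promoter table (GRCh38.p14) listed a single start, the same as in the deposited file. Its promoter is therefore shown, as the 250 bases before that start, chr12:98645040-98645289, forward strand. Capitals mark the matches found on either strand to a GC box (GGGCGG) and a CCAAT box (CCAAT), which did not overlap each other.
APAF1 promoter: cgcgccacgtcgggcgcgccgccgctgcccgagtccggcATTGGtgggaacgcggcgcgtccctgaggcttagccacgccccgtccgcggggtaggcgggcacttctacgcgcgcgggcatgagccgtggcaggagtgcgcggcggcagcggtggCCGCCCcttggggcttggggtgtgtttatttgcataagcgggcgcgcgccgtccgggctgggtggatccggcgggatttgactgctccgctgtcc
The window held 1 GC box, beginning 95 bases before the start, and 1 CCAAT box, beginning 211 bases before it. Of 35116 promoter windows of that length, 42.6% held a GC box and 32.01% a CCAAT box. Matches to TTTNGCGC for E2F and to TGATGNAA for ATF4 with CHOP numbered 0 on both strands of this window, and those letters occurred in 1.51% and 3.14% of all windows.

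Levels of different genes were compared as CPM per kilobase of merged exons, with exons of GENCODE release 29, a gene model other than the authors' RefSeq. In control libraries TNFRSF10B was highest, at 44.1 ± 2.23 CPM per kilobase (SD, n = 3). TNFRSF10A followed at 17.8 ± 0.941, TNFRSF10D at 14.6 ± 0.859 and CASP8 at 13.0 ± 1.31, and the libraries of TNFRSF10D and CASP8 overlapped by a narrow margin (13.89 to 15.52 against 11.5 to 13.93). Then came APAF1 at 10.1 ± 0.251, CFLAR at 7.98 ± 0.0551, FAS at 3.65 ± 0.676 and CASP9 at 1.58 ± 0.228 CPM per kilobase. In mitocurcumin libraries CASP8, at 14.2 ± 0.601, overlapped TNFRSF10A, at 14.8 ± 0.803, and CFLAR, at 9.42 ± 0.229, stood above APAF1, at 8.53 ± 0.592. The order depends on the length used, most of all for CFLAR. Its merged exons span 20637 bp, against a median coding transcript of 1646 bp, and by that transcript length it was the highest of the 8, at 118.1 CPM per kilobase in mitocurcumin libraries against 93.4 for TNFRSF10B. By transcript length CASP8 also passed TNFRSF10A, at 26.8 against 26.2 CPM per kilobase in control, and APAF1 passed TNFRSF10D, at 16.6 against 14.6.

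Gene clusters on chromosomes 8 and 2 hold 5 of the 8 genes. TNFRSF10B, TNFRSF10D and TNFRSF10A lie on the reverse strand of chromosome 8, and TNFRSF10C lies between TNFRSF10B and TNFRSF10D on the forward strand. A gap of 66.6 kb separates TNFRSF10B from TNFRSF10D, and 26.4 kb separates TNFRSF10D from TNFRSF10A. Within 100 kb of these 3 genes, 5 other protein-coding genes, TNFRSF10C included, were tested, of which 0 rose and 2 fell. RHOBTB2, whose row overlaps TNFRSF10B over 67 bp on the opposite strand, went from 15.4 to 9.33 CPM, a log2 fold change of -0.72 ± 0.12 (edgeR adjusted p = 2.2e-04). CHMP7, a gene of the ESCRT membrane machinery, changed by -0.31 ± 0.07 (edgeR adjusted p = 0.00231). Over all tested genes 14.7% rose, so 0 of 5 is near the background. The share of all tested genes that fell was 17.8%, and whether 2 of 5 exceeds it was not tested.

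CFLAR and CASP8 lie 56.8 kb apart on chromosome 2, with CASP10, a caspase closely related to caspase-8, between them. CASP10 stood at 17.5, 15.8 and 14.6 CPM in control and at 15.7, 12.7 and 15.7 CPM in mitocurcumin libraries, with overlap and a log2 fold change of -0.12 ± 0.12 (edgeR adjusted p = 0.474). Of the 4 other protein-coding genes tested within 100 kb, CASP10 included, 0 rose and 0 fell by edgeR's test. Over all tested genes 32.5% changed, so 0 of 4 does not set these neighbors apart. Whether CFLAR changed more than CASP10 was not tested.

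**Figure D4:**
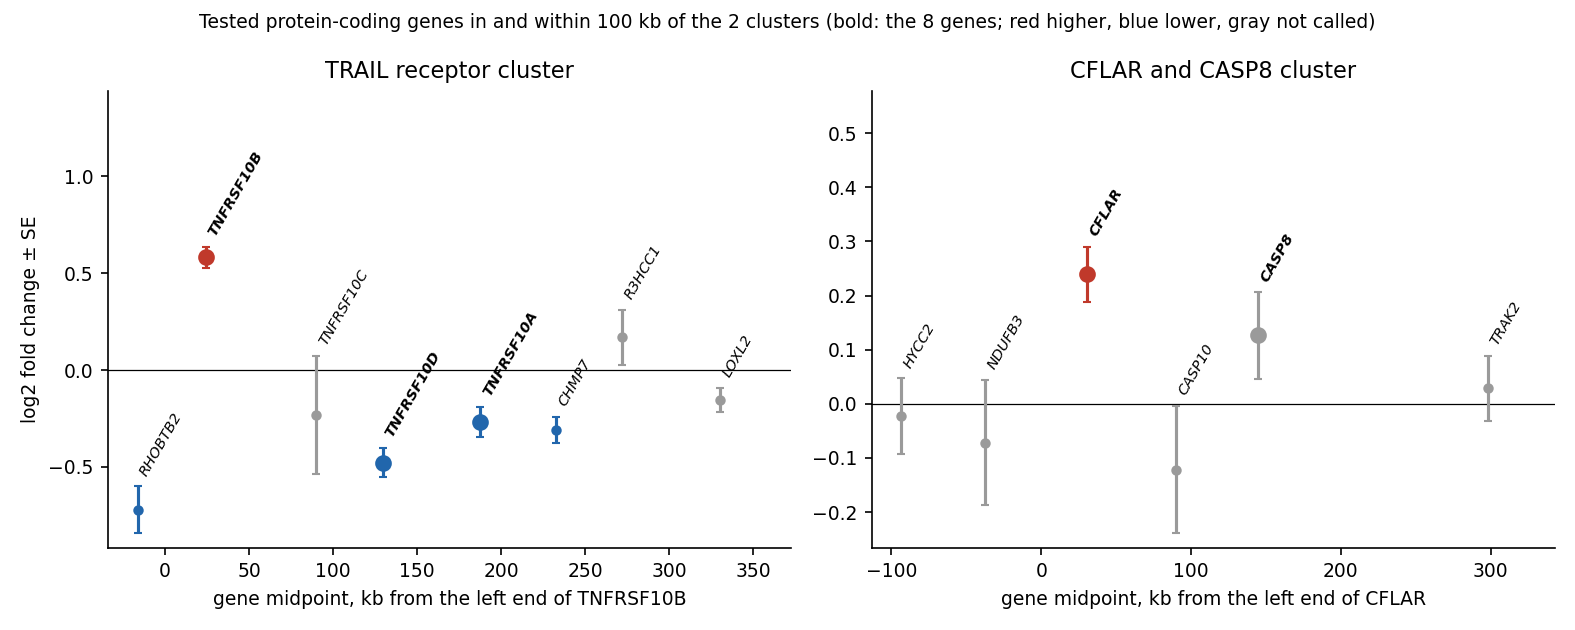
Log2 fold change ± SE (vertical axes, which differ) of tested protein-coding genes by the distance of the gene's midpoint from the left end of TNFRSF10B or CFLAR, in kilobases. TNFRSF10B at 0.58 stands above TNFRSF10D, TNFRSF10A, RHOBTB2 and CHMP7, all called lower, and CFLAR at 0.24 is the only called gene of the chromosome 2 stretch.

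The other genes of these pathways were read from 7 lists holding 66 genes, 59 of which were tested. Of these, 13 rose and 12 fell, together 42.4% against 32.5% of all tested genes, and the log2 fold change had a median of -0.08 and a mean of 0.08. By group, 0 genes rose among the 2 ligands, the 7 other receptors and the 11 caspase substrates tested, against 14.7% of all tested genes, and 8 rose among 11 transcription factors and sensors. Those changed in either direction were 33.3% of adaptors and necroptosis genes, 37.5% of other caspases and 27.3% of caspase substrates. These shares lay near the 32.5% of all tested genes. The share was lowest for the cytochrome c list. It was higher for the other receptors, at 42.9%, and for the transcription factors and sensors, at 81.8%. Differences between these shares were not tested.

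TNFSF10, the gene of TRAIL, was an abundant transcript of the ligand list. It stood at 311, 341 and 348 CPM in control and at 222.5, 226 and 234 CPM in mitocurcumin libraries. Every treated library lay below every control library, with a log2 fold change of -0.55 ± 0.06 (edgeR adjusted p = 1.1e-06). So the mRNA of TRAIL fell while that of its receptor DR5 rose. The 5 ligands had 2 tested members, 0 higher and 1 lower, and FASLG, at 5 counts or fewer in each library, did not pass the filter.

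Other death receptors and decoys had 0 higher and 3 lower members of 7 tested, with a median of -0.23. TNFRSF21, the gene of death receptor DR6, went from 312 to 189 CPM, a log2 fold change of -0.72 ± 0.05 (edgeR adjusted p = 2.4e-08). TNFRSF11B, the gene of osteoprotegerin, a secreted decoy that binds TRAIL and RANK ligand, went from 40.3 to 25.1 CPM, at -0.68 ± 0.09 (edgeR adjusted p = 1.6e-05). NGFR, the p75 neurotrophin receptor gene, also fell, at -0.61 ± 0.15, a call that ended without mitocurcumin replicate 2 (-0.49, edgeR adjusted p = 0.05104). TNFRSF1A, the main TNF receptor gene, did not pass, at -0.19 ± 0.09 (edgeR adjusted p = 0.126), but passed at -0.28 without control replicate 2 and without mitocurcumin replicate 1.

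Receptor complex adaptors and necroptosis genes had 3 higher and 1 lower of 12 tested, with a median of -0.09 and a mean of 0.09. RBCK1, which encodes the HOIL-1 subunit of the linear ubiquitin chain assembly complex, stood at 33.1, 26.9 and 26.2 CPM in control and at 76.3, 73.1 and 69.1 CPM in mitocurcumin libraries. Its log2 fold change of 1.34 ± 0.09 (edgeR adjusted p = 7.3e-09) was the largest of this list. The other subunit genes of that complex, RNF31 and SHARPIN, did not pass, at -0.11 ± 0.12 and -0.09 ± 0.17. CYLD and OTULIN, genes of deubiquitinases that act on such chains, rose by 0.41 ± 0.06 and 0.29 ± 0.06. FADD, the adaptor gene that links the death receptors to caspase-8, stood at 31.3 CPM in control and 29.6 CPM in mitocurcumin libraries, at -0.08 ± 0.09 (edgeR adjusted p = 0.558). MLKL, the effector gene of necroptosis, was the lower one, at -0.33 ± 0.09. That call ended without control replicate 3 and without mitocurcumin replicate 2 (edgeR adjusted p = 0.05128 and 0.05686).

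Among 8 other caspase genes tested, 1 rose and 2 fell, with a median of -0.04. CASP4, an inflammatory caspase gene, went from 46.2 to 67.4 CPM, a log2 fold change of 0.55 ± 0.07 (edgeR adjusted p = 2.1e-05). CASP2 fell from 53.7 to 37.5 CPM, at -0.52 ± 0.09 (edgeR adjusted p = 2.5e-04), and CASP6 changed by -0.44 ± 0.09.

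The list of cytochrome c, inhibitor of apoptosis proteins and their antagonists had 1 higher and 1 lower of 8 tested, with a median of 0.03. BIRC2, the gene of the ubiquitin ligase cIAP1, rose from 284 to 337 CPM, at 0.25 ± 0.05, and BIRC5, the survivin gene, fell from 111 to 91.6 CPM, at -0.28 ± 0.05 (edgeR adjusted p = 0.00221 and 8.0e-04). XIAP, whose product blocks caspases, CYCS, the cytochrome c gene, and DIABLO, an antagonist of the inhibitors, did not pass, at 0.02 ± 0.06, 0.05 ± 0.06 and 0.24 ± 0.11. Mitocurcumin replicate 3 was the highest library for DIABLO, at 51.2 CPM against 36.2 and 37.3 in the other treated libraries, and without it the log2 fold change was 0.06. Caspase substrates had 0 higher and 3 lower of 11 tested, with a median of -0.09. LMNB1, the lamin B1 gene, fell from 217 to 134 CPM, at -0.70 ± 0.07 (edgeR adjusted p = 6.8e-07), and ACIN1 and PARP1 changed by -0.41 ± 0.05 and -0.31 ± 0.05. BID, whose product carries the receptor signal to mitochondria, did not pass, at 0.05 ± 0.09 (edgeR adjusted p = 0.711).

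Transcription factors and sensors known to act on these genes had 8 higher and 1 lower of 11 tested, with a median of 0.41. DDIT3, the gene of CHOP, a known activator of the TNFRSF10B gene, stood at 4.87, 6.07 and 4.18 CPM in control and at 42.4, 33.3 and 40.9 CPM in mitocurcumin libraries. Its log2 fold change was 2.94 ± 0.14 (edgeR adjusted p = 1.2e-10), and its row overlaps MARS1 on the opposite strand. ATF3 and ATF4 rose by 2.56 ± 0.16 and 1.31 ± 0.06. ERN1, the gene of the endoplasmic reticulum sensor IRE1, whose nuclease is known to act on TNFRSF10B mRNA, rose from 31.4 to 61.1 CPM. E2F1, a known activator of the APAF1 gene, went from 46.7 to 29.8 CPM, at -0.65 ± 0.10 (edgeR adjusted p = 1.1e-04). These levels stand beside those of the receptor and apoptosome genes, and no link between them was tested.

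**Figure D5:**
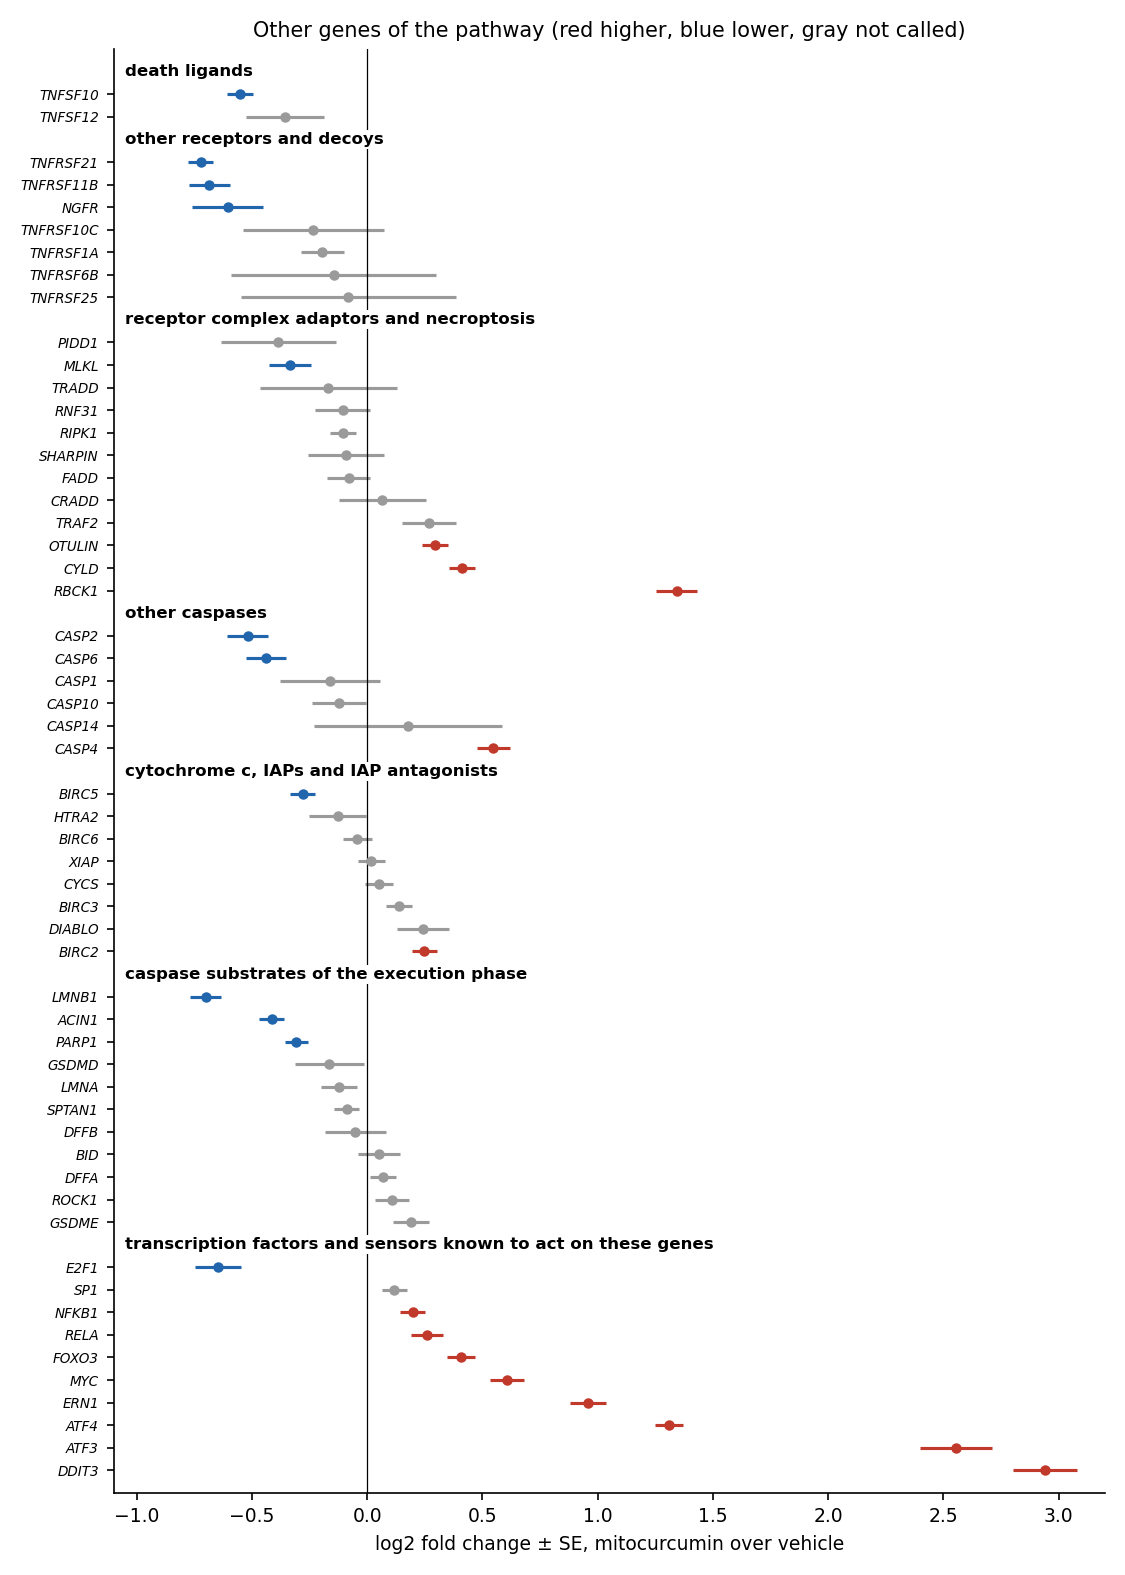
Log2 fold change ± SE (horizontal axis) of 56 of the 59 tested genes of 7 lists, with list names in bold. DDIT3 at 2.94 and ATF3 at 2.56 lie farthest to the right, TNFRSF21 at -0.72 and LMNB1 at -0.70 farthest to the left, and XIAP and CYCS lie near 0.

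The genes whose pattern over the 6 libraries was most like that of TNFRSF10B were ZFYVE9, PLIN2 and SGPL1, among 11164 genes with a mean of at least 5 CPM. Likeness was the root mean square difference of log2 CPM, each gene centered on its control mean, and was 0.03, 0.03 and 0.04. ZFYVE9 encodes a SMAD anchor, PLIN2 a coat protein of lipid droplets and SGPL1 sphingosine-1-phosphate lyase. For TNFRSF10D the nearest were EIF4E2, a cap-binding protein gene, MYBBP1A, a nucleolar protein gene, and IGSF3, at 0.01, 0.02 and 0.03. EIF4E2 went from 79.6 to 57.2 CPM.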

How the data were processed

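RNA sequencing of 3 control and 3 mitocurcumin libraries was analysed. The authors deposited estimated counts per gene, not scaled between libraries, with a RefSeq gene model per the file headers and the build GRCh38 per the submitters' processing notes. For the aligner, counting tool and strand setting, the sources used here state nothing. Normalized values deposited beside them were log2 values, equal to log2 of the count divided by 1 factor per library where counts were at least 10. After rounding, the counts went into edgeR 4.0.16 under R 4.3.3 (quasi-likelihood F-test, robust, TMM scaling, group as the only term, filterByExpr at count 10 and total 15), with Benjamini-Hochberg adjustment over 16481 genes. CPM used TMM-scaled totals, and marker levels used plain totals. SEs came from the fold change and its F statistic. Total counts of 23146822 to 29104681 per library set the counting precision. The biological coefficient of variation was 8.43%, and libraries of 1 group differed beyond Poisson sampling (chi-square per gene of 5.31 to 18.8). The test was tried on simulated data.

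The 8 genes and the 7 lists were chosen with earlier results of these data known. All 8 genes were named, with 13 others fixed by name (3 of which are not reported here, though the lists' counts include them), the 2 most changed genes of each list at a mean of at least 1 CPM, neighbors within 100 kb, and the genes of nearest pattern. NGFR, OTULIN, MLKL, CASP6, PARP1, ERN1, TNFRSF1A, RNF31, SHARPIN, TNFRSF10C, TRAF2 and FASLG were named after their values were seen. Protein sequences were planned and not used here, and the promoter was shown in their place. Alternatives used DESeq2 1.42.0, limma 3.58.1, other scalings and filters, unrounded counts, a replicate term and each library left out.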

Additional observations from a re-analysis of the deposited data

How the results depend on the processing

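Over 18 alternatives, 2 of the 8 genes were called higher in each, and 1 to 3 were called lower. The lower count was 1 without mitocurcumin replicate 3. Dropping replicate 1 or 2 of the mitocurcumin group, or replicate 3 of the controls, left 2. It was also 2 at an adjusted p under 0.01, where TNFRSF10A was lost. TNFRSF10B, CFLAR and TNFRSF10D were called in all 17 alternative fits, with log2 fold changes of 0.56 to 0.63, 0.22 to 0.27 and -0.50 to -0.41, while CASP8, CASP9 and FAS were called in 0 of 17. Over all genes, leaving out single libraries gave 1850 to 2872 higher and 2165 to 3216 lower, and upper quartile scaling gave 2674 and 2609 against 2425 and 2938. Deviations of same-numbered libraries from their group means correlated at 0.101, 0.017 and -0.01, and those of differently numbered libraries at -0.109 to 0.091. With 3 libraries per group, these values cannot decide whether same-numbered libraries were paired. A replicate block gave 2643 higher and 3163 lower genes, the same counts of 2 and 3 among the 8, and calls for DIABLO (0.23), TNFRSF1A (-0.19) and TRAF2 (0.27), with edgeR adjusted p-values of 0.04455, 0.01919 and 0.03729. It changed no other call in the 7 lists. Fold changes with libraries left out were followed only for a chosen set of genes, not for all genes of the lists. With the pair of control replicate 1 and mitocurcumin replicate 2 (added after seeing the data) included, 7 uncalled genes of that set changed sign, the cause of which was not tested: FAS ran from -0.2138 to 0.0598, CASP10 from -0.1714 to 0.04994, CYCS from -0.0007866 to 0.1001, FADD from -0.1536 to 0.0001302, RNF31 from -0.192 to 0.06067, SHARPIN from -0.2369 to 0.1052 and XIAP from -0.03718 to 0.05883. Among the 8 genes, FAS and CASP9 had the fewest counts, at 161 to 293.6 per library.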
